A study of Mus musculus with 8 samples.

Results

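The 10 genes described here encode the glycogen-targeting subunits of protein phosphatase 1 (PP1), *Ppp1r3a* to *Ppp1r3g* (7 genes), and its catalytic subunits, *Ppp1ca*, *Ppp1cb* and *Ppp1cc* (3 genes). They were chosen by function and looked up by symbol, and all 10 were found among the 24054 genes of the table. *Ppp1r3c* encodes PTG, protein targeting to glycogen. Their mRNA was measured by RNA-seq in soleus (SOL) of 4 MI4KO and 4 flox mice, 1 library per mouse. MI4KO mice were Irf4 flox/flox;Myl1-Cre+, with the transcription factor IRF4 deleted by a Cre that is knocked into *Myl1* and acts in skeletal muscle fibers. Flox mice carried the same floxed *Irf4* alleles without Cre. All 8 mice were C57BL/6 males labelled as fed a high fat diet, and their age was not given in the sources used here. The Cre allele itself was present in MI4KO mice only, so its own effect and that of *Irf4* deletion cannot be told apart. Whole muscle also holds cells other than fibers, in which *Irf4* was not targeted.

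PP1 removes phosphate from many proteins, and its catalytic subunits are directed to each of them by a partner. The PPP1R3 partners bind both PP1 and glycogen. They bring the phosphatase to glycogen synthase, which is activated by dephosphorylation, and to glycogen phosphorylase and phosphorylase kinase, which are switched off by it, so that glycogen is built. In striated muscle the long-known partner is GM (*Ppp1r3a*), which is anchored in the sarcoplasmic reticulum, while PTG is found in muscle, liver, fat and other tissues and can also bind the enzymes themselves.

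The region just upstream of *Ppp1r3c* is shown first, since PTG was the member the study turned to, beside that of *Ppp1r3a*, the other main targeting subunit of muscle. Both stretches are RefSeq sequence of GRCm38.p6, written 5′ to 3′ on the minus strand and ending before the first annotated base of the gene. That of *Ppp1r3c* is at chr19:36736654-36736854 and that of *Ppp1r3a* at chr6:14755275-14755524. Capitals mark the motif CACGTG (an E-box) and the motif CCAAT or its reverse complement.
Ppp1r3c: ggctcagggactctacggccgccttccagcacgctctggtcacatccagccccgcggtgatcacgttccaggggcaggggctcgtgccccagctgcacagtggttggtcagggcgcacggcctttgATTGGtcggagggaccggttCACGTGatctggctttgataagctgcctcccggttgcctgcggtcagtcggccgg
Ppp1r3a: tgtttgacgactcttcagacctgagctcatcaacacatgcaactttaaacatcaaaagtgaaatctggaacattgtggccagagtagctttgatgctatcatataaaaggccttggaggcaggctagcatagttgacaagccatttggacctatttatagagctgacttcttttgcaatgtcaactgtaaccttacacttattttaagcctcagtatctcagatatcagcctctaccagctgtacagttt
The E-box of *Ppp1r3c* began 104 bases before the RefSeq start of the gene, and a CCAAT motif on the other strand, read here as ATTGG, began 124 bases before it. The *Ppp1r3a* stretch held neither. The RefSeq start of *Ppp1r3c*, at base 36736604, lies inside the gene as annotated in GENCODE, which starts at base 36736653. The bases between these starts are not printed. GC content was 66.2% for the *Ppp1r3c* stretch and 40.4% for that of *Ppp1r3a*. Upstream sequence was found for 7 of the 10 members (*Ppp1r3b*, *Ppp1r3e* and *Ppp1ca* had no entry). The 250 bases before each RefSeq start were searched on both strands. CACGTG was found for *Ppp1r3c* and *Ppp1r3d*, and in 6.02% of all 32851 promoters searched in the same way. CCAAT was found for *Ppp1r3c*, *Ppp1r3f* and *Ppp1r3g*, and in 33.8% of all promoters. The core motif bound by interferon regulatory factors, GAAA and again GAAA with any 2 bases between them, was found for 0 of the 7 members and in 2.98% of all promoters. TGACGTCA, the cAMP response element, and a glucocorticoid response element, GNACA and TGTNC with any 3 bases between them, were also found for 0 of the 7, and in 1.55% and 0.387% of all promoters. A match or its absence describes these letters in this window only.

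Each mouse gave between 13417512 and 16384565 reads on genes, and values are CPM after TMM scaling (trimmed mean of M-values), which puts the libraries on a common scale. At this depth 3 reads corresponded to values of 0.181 to 0.225, and totals and floors cover counting error only. *Myh7*, the slow fiber myosin, was at 11079 to 14577 and *Myh2*, the fast oxidative one, at 12401 to 17110 over the 8 mice, so both fiber types of SOL were present. *Myh4*, another fast fiber myosin, varied widely within both groups, at 34.5 to 2496 in flox mice and 55.8 to 2174 in MI4KO mice. Its part in the values of the members was not tested. MI4KO mouse 3 stood apart, with 53 genes exceeding all other mice by over 1 on the log2 scale, where each of the other mice had 0 to 3. Flox mouse 1 stood apart for liver genes, all 10 of which were highest in it, with a sum of 135 against 1.197 to 3.19 in the others.

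*Irf4*, the deleted gene, was at 0.686, 1.46, 1.58 and 1.68 in flox mice 1 to 4 and at 0.725, 0.840, 0.266 and 1.03 in MI4KO mice 1 to 4. Flox mouse 1 lay inside the MI4KO range, and the other flox mice lay above all MI4KO mice. MI4KO mouse 3 was the lowest, with 4 reads, and an exact permutation test gave p = 0.114. The log2 fold change was -0.45 (standard error 0.20, unadjusted p = 0.040 by limma). Adding 1 before taking logs shrinks it for a gene this low. On the reads recovered from the values, edgeR gave -0.86 and DESeq2 -0.87. In limma it was -0.60 without flox mouse 1 and -0.31 without MI4KO mouse 3. The p was not under 0.05 in 10 of 18 alternative fits, edgeR, DESeq2, the covariate for mouse numbers and the fit without MI4KO mouse 3 among them, and reached 0.12. The mice carry numbers of 2 ranges in their labels, whose meaning is not given. In the lower range *Irf4* differed by 0.08 on the log2 scale (2 MI4KO mice less flox mouse 1 alone). In the upper range it differed by -0.68 (2 MI4KO mice less 3 flox mice). In a whole muscle, fewer cells of a type and less RNA per cell cannot be told apart.

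The members spanned a wide range of levels. Per kilobase of transcript, with the longest coding transcript of each gene in GENCODE M21, *Ppp1r3c* and *Ppp1ca* were the most abundant of the 10. *Ppp1r3c* was at 92.7 ± 11.2 per kilobase in flox mice and 179.6 ± 156 in MI4KO mice (SD, n = 4), and *Ppp1ca* at 112 ± 4.65 and 116 ± 11.1. By transcript length the ranges of these 2 genes overlapped, and *Ppp1r3c* was above *Ppp1ca* in 1 mouse, MI4KO mouse 3. *Ppp1cb* and *Ppp1cc* followed with medians of 44.8 and 38.9 per kilobase over the 8 mice. Their ranges overlapped, although *Ppp1cb* was above *Ppp1cc* in 8 of 8 mice. *Ppp1r3a* came next, at 14.4 to 20.6 per kilobase, and overlapped with none of its neighbours in this order. The other 5 targeting subunits were far rarer, with medians of 1.32 for *Ppp1r3f*, 1.07 for *Ppp1r3d*, 0.532 for *Ppp1r3e*, 0.123 for *Ppp1r3b* and 0.0609 for *Ppp1r3g*. Neighbours among these 5 overlapped in every case. With coding length in place of transcript length, *Ppp1cb* moved above *Ppp1ca* and *Ppp1r3d* above *Ppp1r3f*, and the other 6 kept their place. *Ppp1r3c* was then at 234 to 1186 per kilobase and *Ppp1ca* at 153 to 192, so *Ppp1r3c* was above *Ppp1ca* in all 8 mice. The order of these 2 genes thus depends on the length used.

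**Figure D1:**
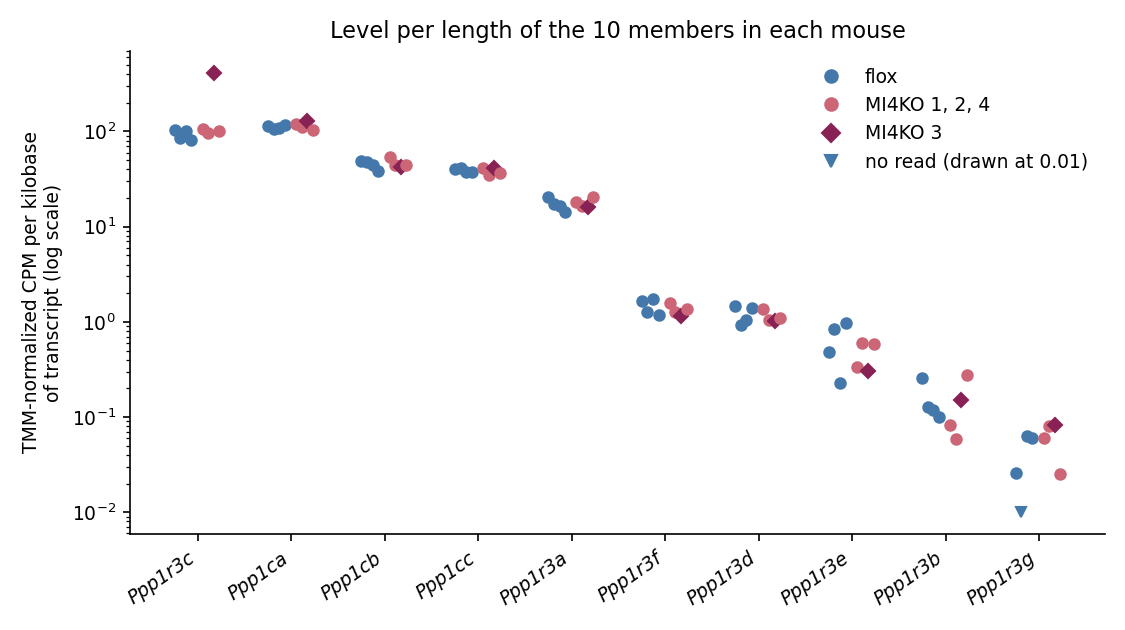
Level of each member in each mouse, as TMM-normalized CPM per kilobase of transcript on a log scale, ordered by the mean over 8 mice. Each point is 1 mouse, with flox in blue, MI4KO in red and MI4KO mouse 3 as a dark diamond, and the triangle marks the 1 mouse with no *Ppp1r3g* read. *Ppp1r3c* in MI4KO mouse 3, at 414, is the 1 point far from its group, and *Ppp1r3f* to *Ppp1r3g* lie below 2.

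PTG mRNA was abundant in SOL of both genotypes and 1 MI4KO mouse carried 4.12 times the median of the others. *Ppp1r3c*, at chr19:36731731-36736653 on the minus strand of GRCm38, was at 283, 230.2, 274 and 222 in flox mice 1 to 4 and at 293, 259.8, 1128 and 277 in MI4KO mice 1 to 4. The groups overlapped: MI4KO mice 2 and 4 lay within the flox range, MI4KO mouse 1 lay slightly above it, and MI4KO mouse 3 was alone far above all others. Behind these values stood 3053 to 4582 reads in 7 mice and 16973 in MI4KO mouse 3, so counting error was small beside the gap. The log2 fold change over all mice was 0.64 (standard error 0.36, 95% interval -0.14 to 1.43, unadjusted p = 0.10 by limma), which as a fold is 1.56 with an interval of 0.905 to 2.69. Permuting the 8 mice in all ways, an exact two-sided test, gave p = 0.171, and 0.0286 is the lowest p that 4 mice against 4 can reach.

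Without MI4KO mouse 3, *Ppp1r3c* was at 276 ± 16.4 (SD, n = 3) in the remaining MI4KO mice against 252 ± 30.6 (SD, n = 4) in flox mice. The log2 fold change was then 0.14 (95% interval -0.06 to 0.33, unadjusted p = 0.153 by limma), a fold of 1.10 with an interval of 0.961 to 1.26. Leaving out the highest mouse lowers the fold by construction. The interval of the full set, 0.905 to 2.69 around a fold of 1.56, contained the interval without that mouse. The exact permutation test of 3 mice against 4 gave p = 0.343, and its smallest p is 0.0571. edgeR's quasi-likelihood test on the reads recovered from the values, which weighs the group means rather than the logs, put it at 0.94 on the log2 scale over all 8 mice (unadjusted p = 0.037), and DESeq2 gave 0.94 with a p of 0.068. Without MI4KO mouse 3, an alternative added after seeing the data, edgeR put it at 0.18 (unadjusted p = 0.063), and 0.607% of all genes tested passed both limits in that fit. In the lower range of mouse numbers, whose only flox mouse is flox mouse 1, *Ppp1r3c* differed by -0.04 on the log2 scale. In the upper range, which holds MI4KO mouse 3, it differed by 1.21.

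**Figure D2:**
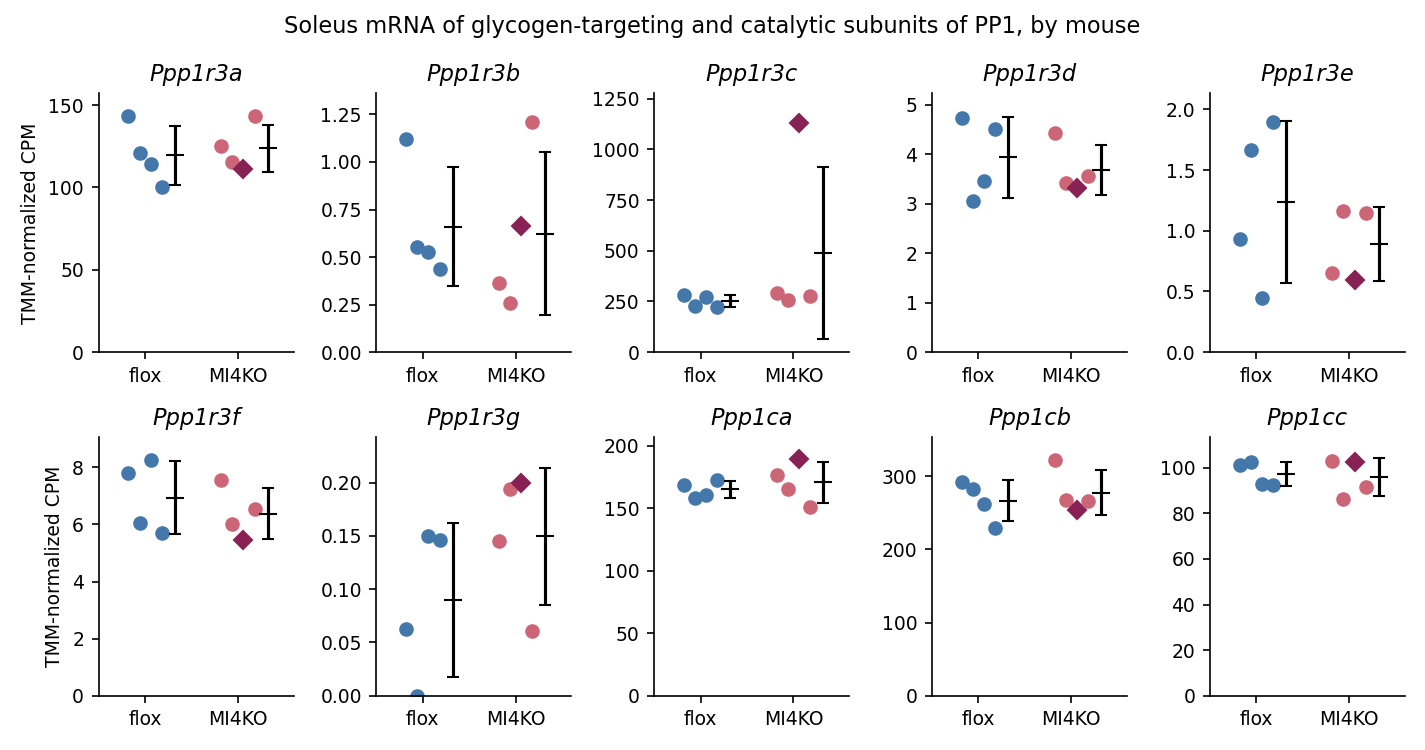
TMM-normalized CPM of the 10 members in each mouse, each panel with its own linear axis from 0. Points are mice (flox in blue, MI4KO in red, MI4KO mouse 3 as a dark diamond), and the bars give the mean and SD of the 4 mice of a group. In *Ppp1r3c*, MI4KO mouse 3 is at 1128 and the other 7 mice lie between 222 and 293, and the groups overlap in all 10 panels.

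*Ppp1r3a*, the striated muscle subunit GM, was at 143, 121, 114 and 100.3 in flox mice 1 to 4 and at 125, 115, 111 and 143 in MI4KO mice 1 to 4 (chr6:14713977-14755274, minus strand). Flox mouse 1 and MI4KO mouse 4 were highest and nearly equal, and flox mouse 4 was lowest. MI4KO mouse 3, so high in *Ppp1r3c*, was the lowest of the MI4KO mice in *Ppp1r3a*. The log2 fold change of *Ppp1r3a* was 0.05 (95% interval -0.18 to 0.29, unadjusted p = 0.63 by limma), a fold of 1.04 with an interval of 0.881 to 1.22. Without MI4KO mouse 3 it was 0.10 (95% interval -0.13 to 0.33).

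*Ppp1r3b* (chr8:35375739-35388139, plus strand) encodes GL, the main targeting subunit of liver, and had only 4 to 20 reads per mouse. It was at 1.12, 0.555, 0.525 and 0.437 in flox mice and at 0.363, 0.259, 0.665 and 1.21 in MI4KO mice 1 to 4, so 1 mouse of each group lay well above the rest. The higher flox mouse was mouse 1, the one with all 10 liver genes at their highest, and the higher MI4KO mouse, mouse 4, had a liver gene sum within 1.197 to 1.94, as all MI4KO mice did. The part of liver RNA in the *Ppp1r3b* value of flox mouse 1 was not tested. The gene was below the level set for testing, and the fit without that filter gave -0.05 on the log2 scale (95% interval -0.45 to 0.35, unadjusted p = 0.79 by limma). Without flox mouse 1, an alternative added after seeing the data, it gave 0.07 (-0.38 to 0.53).

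*Ppp1r3d* (chr2:178411206-178414472, minus strand), a broadly expressed subunit, was at 3.05 to 4.74 in flox mice and 3.32 to 4.42 in MI4KO mice, with 44 to 76 reads each. *Ppp1r3f* (chrX:7557296-7574283, minus strand), described mostly in brain, was at 5.68 to 8.25 in flox mice and 5.45 to 7.54 in MI4KO mice. Its exons overlap those of *Foxp3* on the other strand, which was at no more than 0.075 in any mouse. They also overlap *Flicr* on the other strand and *Gm36995* on the same strand, for which there were no values. *Ppp1r3e* (chr14:54872669-54877550, minus strand), known from liver and muscle, was at 0.935, 1.66, 0.4502 and 1.89 in flox mice and 0.653, 1.16, 0.598 and 1.15 in MI4KO mice, with 6 to 26 reads. The MI4KO values of all 3 genes lay between the flox extremes, except for *Ppp1r3f* in MI4KO mouse 3, just below them. Log2 fold changes were -0.07 for *Ppp1r3d*, -0.20 for *Ppp1r3e* and -0.10 for *Ppp1r3f*, with 95% intervals of -0.38 to 0.24, -0.68 to 0.28 and -0.39 to 0.20 (unadjusted p = 0.65, 0.37 and 0.48 by limma). *Ppp1r3g* (chr13:35958839-35970388, plus strand), a subunit of liver that responds to feeding there, had 0 to 3 reads per mouse and values of 0 to 0.199. It was at or below the floor of 3 reads in every mouse, so a difference was not detectable at this depth and no fold is given.

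The catalytic subunits were close to level across the 8 mice. *Ppp1ca* (chr19:4192065-4195420, plus strand), the alpha isoform, was at 169, 158, 161 and 173 in flox mice 1 to 4 and at 176, 166, 189.7 and 151 in MI4KO mice 1 to 4. MI4KO mouse 3 was highest and MI4KO mouse 4 lowest, so the MI4KO mice enclosed the flox mice. *Ppp1cb* (chr5:32458843-32517433, plus strand), the beta isoform found with GM and with the myosin phosphatase, was at 292, 283, 262 and 229 in flox mice and 323, 268, 254 and 266 in MI4KO mice. The highest was MI4KO mouse 1 and the lowest flox mouse 4, which was also lowest for *Ppp1r3a* and *Ppp1r3c*. *Ppp1cc* (chr5:122158278-122175273, plus strand), the gamma isoform, was at 101, 102, 92.9 and 92.4 in flox mice and 103, 86.2, 103 and 91.7 in MI4KO mice. Log2 fold changes were 0.04 for *Ppp1ca* (95% interval -0.13 to 0.21), 0.06 for *Ppp1cb* (-0.15 to 0.26) and -0.02 for *Ppp1cc* (-0.19 to 0.15), with unadjusted p of 0.59, 0.56 and 0.78 by limma. As folds these intervals reached 1.16, 1.201 and 1.11 upward and 0.916, 0.902 and 0.875 downward. The 3 genes are similar in coding sequence, and how the authors' estimation divided reads among them was not tested. *Ppp1ca* overlaps exons of *Rad9a* on the other strand, which was at 2.99 to 4.53, far below it. *Ppp1cb* overlaps exons of *Gm43312* on the same strand, for which there were no values.

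Over the family, 8 of the 10 members passed the filter on low values, and 0 of these 8 were past a 1.5-fold change with an unadjusted p under 0.05 in limma, where 0.219% of the 11865 genes tested were (0.0590% higher and 0.160% lower in MI4KO). At an unadjusted p under 0.05 alone it was also 0 of 8, against 3.36% of all genes tested, and 0 genes had an adjusted p under 0.05 in limma, edgeR or DESeq2. Exact two-sided permutation of the mice gave p between 0.429 and 0.8286 for the 8 members other than *Ppp1r3c* and *Ppp1r3g*. With edgeR 1 of the 8, *Ppp1r3c*, passed both limits, against 0.548% of all genes and 0.177% in that direction, and it alone had a p under 0.05, against 3.06%. With DESeq2 0 of the 8 passed both limits and 0 the p alone, against 0.430% and 2.09%. Without MI4KO mouse 3, limma again called 0 of the 8 at both limits and 0 at the p alone, against 0.270% and 5.01%. The groups did not overlap for 0 of the 10 members, and for 2.07% of all genes tested (0.371% higher and 1.70% lower in MI4KO). The median log2 fold change of the 8 members was 0.01, beside -0.01 over all genes tested. The spread over the mice differed between members. On the log2 scale the SD over 8 mice of *Ppp1r3c* lay above that of 99.6% of genes tested and that of *Ppp1r3e* above 95.1%. Those of *Ppp1ca* and *Ppp1cc* lay above only 19.1% and 16.8%. This SD also takes in any group difference and, for *Ppp1r3e* at 6 to 26 reads, counting error.

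**Figure D3:**
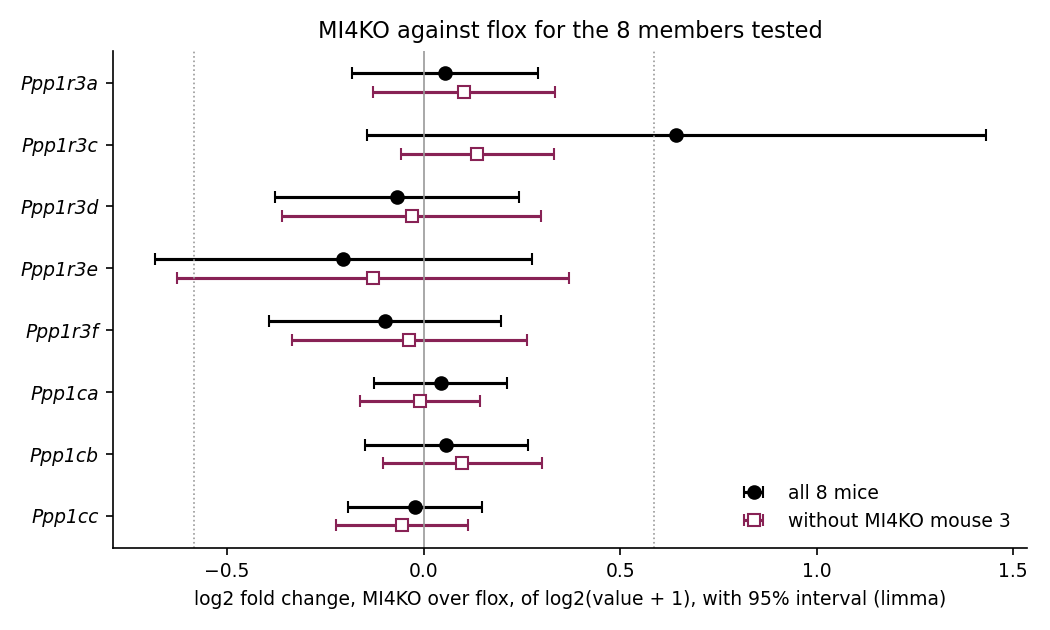
Log2 fold change of MI4KO over flox with its 95% interval from limma for the 8 members that passed the filter, with all 8 mice (black circles) and without MI4KO mouse 3 (open squares). Dotted lines mark a fold of 1.5 in either direction. *Ppp1r3c* moves from 0.64 to 0.14 and its interval narrows, and the intervals of all 8 members cross 0 with and without that mouse.

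The make-up of the targeting subunits was steady in 7 mice. In flox mice 1 to 4 *Ppp1r3c* made up 81.0%, 80.4%, 83.7% and 81.8% of their summed level per kilobase, and in MI4KO mice 1, 2 and 4 it made up 83.4%, 82.9% and 80.9%. In MI4KO mouse 3 it was 95.7%. *Ppp1r3a* made up 13.6 to 16.5% in the 7 mice and 3.70% in MI4KO mouse 3, and the other 5 genes together 2.65 to 3.71% and 0.625%. PTG mRNA therefore stood at 4.86 to 6.15 times GM mRNA per kilobase in 7 mice and at 25.9 times in MI4KO mouse 3. By coding length the share of *Ppp1r3c* was 84.1 to 86.8% and 96.6%.

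Among the 3 catalytic genes *Ppp1ca* was at 54.8 to 60.8% of their summed level per kilobase of transcript over all 8 mice. By coding length its share was 29.1 to 34.9%, and *Ppp1cb* held the highest share, 46.8 to 54.0%. Their sum was 184 to 215 per kilobase, and that of MI4KO mouse 3, at 213, lay within the range of the others. The sum of the targeting subunits was 99.7 to 129 per kilobase in 7 mice and 433 in MI4KO mouse 3. Catalytic mRNA thus exceeded targeting mRNA 1.47 to 1.93 times in 7 mice, and was 0.491 times as abundant in MI4KO mouse 3. By coding length the ratio was 1.49 to 1.91 and 0.449. These are ratios of mRNA levels, and the amounts of protein were not measured here.

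**Figure D4:**
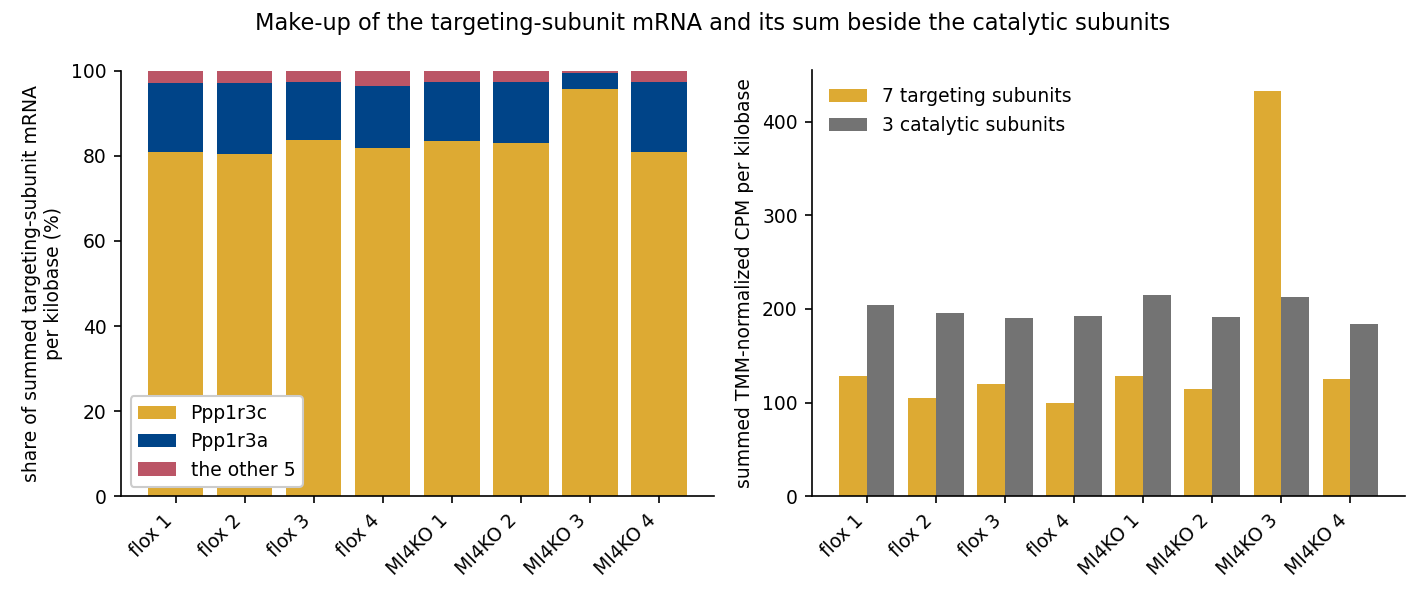
Left, share of *Ppp1r3c*, *Ppp1r3a* and the other 5 targeting subunits in their summed level per kilobase of transcript in each mouse, in percent. Right, summed TMM-normalized CPM per kilobase of the 7 targeting and the 3 catalytic subunits. In MI4KO mouse 3 the share of *Ppp1r3c* is 95.7% and the targeting sum of 433 exceeds the catalytic sum of 213, which it does in none of the other 7 mice.

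MI4KO mouse 3 stood apart by more than 1 log2 unit for *Ppp1r3c* and for no other member tested. *Ppp1r3c* lay 2.04 log2 units above the median of the other mice there, rank 14 among the 11865 genes tested. *Ppp1ca* and *Ppp1r3g* were also highest in this mouse, at 1.15 times the median of the others for *Ppp1ca* and at 3 reads for *Ppp1r3g*. Of the members tested 2 of 8 were highest there, and of all genes tested 30.9%. All 16 glucocorticoid-responsive genes listed were highest in the same mouse, with a sum of 4713 against 2585 to 2973 in the others. The list was chosen with earlier results of these data known, so this count is not independent of them. Of the 6 neutrophil genes 3 were highest there (*S100a8*, *S100a9* and *Retnlg*), at only 24, 27 and 13 reads. The sum of the 6 was 4.32 against 0.146 to 0.423. *Ngp* and *Camp* were at 0 there, and *Ltf*, at 0.066, lay within the range of the others. The summed fast fiber genes were at 48666 against 35523 to 46130. Of these 5 genes 3 were highest there (*Myh1*, *Tnnt3* and *Atp2a1*). *Myh2*, at 14273, and *Myh4*, at 55.8, lay within the range of the others, as did the summed slow fiber genes, at 27524. The part of these in the *Ppp1r3c* value was not tested.

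The genes most like *Ppp1r3c* over the 8 mice were *Slc39a14*, *Foxo1*, *Slc7a8*, *Cntfr* and *Cdkn1a*, by the root-mean-square difference between log2 profiles centred on each gene's mean. That difference was 0.115, 0.185, 0.226, 0.235 and 0.240 log2 units, beside a median of 0.70 over 11864 genes. *Slc39a14*, a zinc and iron transporter, was at 59.2 in MI4KO mouse 3 and 13.2 to 15.6 in the others. *Foxo1*, a transcription factor of the fasting response, was at 124 and 29.1 to 41.8. *Slc7a8*, an amino acid transporter, was at 12.4 and 1.596 to 2.96, *Cntfr*, a receptor for ciliary neurotrophic factor, at 10.2 and 1.88 to 2.87, and *Cdkn1a*, an inhibitor of the cell cycle, at 49.9 and 12.5 to 16.2. Over the other 7 mice the difference was 0.110, 0.176, 0.240, 0.203 and 0.218 in the same order, beside a median of 0.186 over all genes. *Slc7a8*, *Cntfr* and *Cdkn1a* were then beyond the median, *Foxo1* was just under it, and *Slc39a14* was below it, with 738 genes closer to *Ppp1r3c* than it was.

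**Figure D5:**
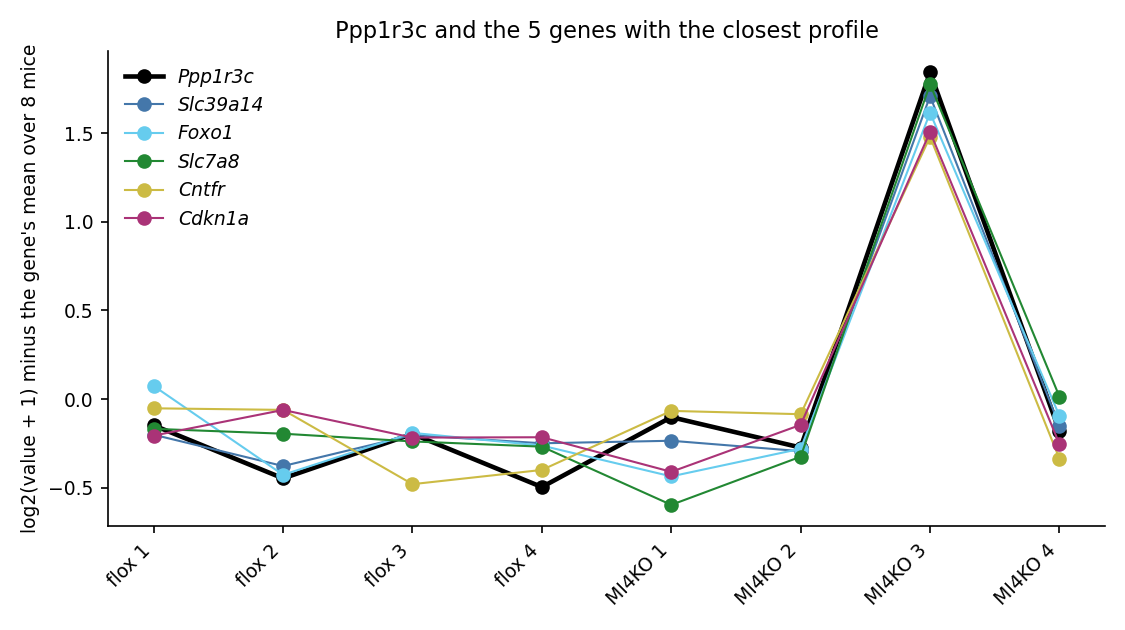
Profile of *Ppp1r3c* (thick black) and of the 5 genes closest to it, as log2(value + 1) minus the mean of each gene over the 8 mice, with mice along the horizontal axis. Lines only join the points of a gene. The 6 genes share a peak in MI4KO mouse 3 and *Ppp1r3c* lies between -0.50 and -0.10 in the remaining mice.

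The enzymes and partners that the targeted phosphatase acts on gave no call. Of 22 listed genes of glycogen metabolism 21 were tested, 0 passed both limits and 0 had an unadjusted p under 0.05 in limma, nor in edgeR, against 0.219% and 3.36% of all genes in limma. Their median log2 fold change was 0.01. *Gys1*, the muscle glycogen synthase, was at 755 to 926 in flox mice and 797 to 926 in MI4KO mice, with a log2 fold change of -0.03 (95% interval -0.22 to 0.16). *Pygm*, the muscle phosphorylase, was at 2216 to 2406 and 1903 to 3056, highest in MI4KO mouse 3, with 0.01 (-0.26 to 0.29). *Phka1*, the muscle alpha subunit of phosphorylase kinase, was at 139 to 163 and 137 to 204, again highest in MI4KO mouse 3, with 0.15 (-0.09 to 0.39). Without that mouse the log2 fold change of *Phka1* was 0.05.

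Of the other genes of this list, the second highest log2 fold change was 0.12, of *Pgm1*, which was at only 2.24 to 3.75 over the 8 mice. The lowest were -0.23 for *Pygl*, the liver phosphorylase, at 0.465 to 1.55 over the 8 mice, and -0.17 for *Phka2*, the liver alpha subunit of phosphorylase kinase. *Phka2* was at 10.1, 10.2, 11.1 and 12.5 in the flox mice in rising order and at 9.29, 9.43, 9.70 and 9.97 in the MI4KO mice. It was the 1 gene of the list's 21 tested whose groups did not overlap, where 2.07% of all genes tested did not (1.70% lower in MI4KO), and its unadjusted p was 0.095 by limma.

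Of 36 other regulatory subunits and inhibitors of PP1, 29 were tested and 0 passed both limits or the p limit alone in limma, against 0.219% and 3.36% of all genes, and likewise in edgeR, against 0.548% and 3.06%. *Ppp1r14d* was at 0 in all mice. The lowest log2 fold changes were -0.23 for *Ppp1r18* and -0.22 for *Ppp1r16b*, and the highest 0.17 for *Ppp1r14c* and 0.14 for *Ppp1r1a*, which encode inhibitors of PP1. Both inhibitors were highest in MI4KO mouse 3, *Ppp1r14c* at 47.0 against 23.0 to 31.4 and *Ppp1r1a* at 320.3 against 159 to 201.2. Without that mouse their log2 fold changes were -0.03 and -0.07.

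Of 9 genes upstream of PTG or linked to IRF4, all tested, 0 passed both limits in limma and 2 had an unadjusted p under 0.05, against 0.219% and 3.36% of all genes. These were *Irf4*, described above, and *Srebf1*, a regulator of lipid synthesis named after its value was seen. *Srebf1* was at 25.2 to 29.9 in flox mice and at 33.7, 29.0, 49.6 and 30.9 in MI4KO mice 1 to 4, and the groups overlapped. The log2 fold change of *Srebf1* was 0.31 (unadjusted p = 0.043 by limma), and 0.36 with both edgeR (unadjusted p = 0.022) and DESeq2 (unadjusted p = 0.012). Without MI4KO mouse 3 it was 0.15 in limma (unadjusted p = 0.107). In edgeR 0 of the 9 passed both limits and 1, *Srebf1*, the p limit alone, against 0.548% and 3.06% of all genes. *Foxo1* and *Ppargc1a*, a coactivator of mitochondrial genes, had the highest log2 fold changes, 0.40 and 0.38, which were -0.07 and 0.07 without that mouse. *Ppargc1a* was at 76.7 in flox mouse 1 and at 28.5 to 37.7 in the other flox mice. Without flox mouse 1 its log2 fold change was 0.68, past both limits (unadjusted p = 0.029 by limma). That fit still held MI4KO mouse 3, where *Ppargc1a* was at 101, and 35 of the 11865 genes tested passed both limits in it. *Creb1*, the cAMP-responsive factor, was at 9.91 to 12.8 over the 8 mice, with -0.02.

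Of the 16 glucocorticoid-responsive genes, all tested, 0 passed both limits and 0 the p limit alone in limma, against 0.219% and 3.36% of all genes, and 2 passed both in edgeR, against 0.548%. These 2 were the metallothioneins *Mt2* and *Mt1*, with 0.94 and 0.75 in limma. *Mt1* was at 191 in MI4KO mouse 3 and at 17.8 to 26.3 in the others, and *Mt2* at 59.6 and 1.67 to 7.63. Without that mouse the log2 fold changes in limma were -0.02 for *Mt1* and -0.04 for *Mt2*, and edgeR gave 0.02 and 0.20. The lowest log2 fold changes were -0.21 for the clock gene *Per1* and -0.10 for the kinase *Sgk1*. The median of the list was 0.18 with all mice and -0.13 without MI4KO mouse 3, beside -0.01 and -0.04 over all genes tested. In the fit without that mouse 2 of the 16 had an unadjusted p under 0.05 by limma, against 5.01% of all genes, *Per1* at -0.44 and *Arrdc2* at -0.45.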

How the data were processed

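SOL from 4 MI4KO and 4 flox mice was measured as 1 stranded mRNA library per mouse. The authors sequenced single reads of 50 bases, mapped them with Bowtie2 2.1.0 to UCSC transcripts (mm10 in the submitters' processing notes), estimated expression with RSEM 1.2.15 and scaled it by TMM. What they deposited as signal is CPM after TMM scaling, per gene and mouse. A signed fold-change score and a p-value and FDR, all from the authors' own edgeR comparison, were deposited beside it and not used. Every non-zero value (100%) was a whole multiple of a step of its mouse, within 0.05 of a step, so whole numbers of reads were recovered. RSEM estimates counts, so these may be rounded estimates. Totals of 13417512 to 16384565 reads per mouse set the precision.

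Groups come from the label titles, and mice are numbered in ascending order of the number in the title. Nothing in the labels gives litters or batches. Values were compared with limma 3.58.1 (R 4.3.3, trended eBayes) on log2(value + 1), keeping the 11865 genes that reached 1 in 4 or more mice. Fold changes on this scale understate those of low genes. Calls needed an unadjusted p under 0.05 and a 1.5-fold change, and adjusted p are Benjamini-Hochberg over all genes tested. Single genes were also compared by exact two-sided permutation of log2(value + 1) (scipy 1.17.1). The fit was tested on simulated data. Alternatives were edgeR 4.0.16 and DESeq2 1.42.0 on recovered reads, other pseudocounts, filters, scalings and variance models, a covariate for the range of mouse numbers, and each mouse left out.

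Gene positions and lengths are from GENCODE M21 (GRCm38). Coding length was added after seeing the data, in place of a length from RefSeq proteins. Members, lists and the genes named were chosen with earlier results of these data known. Named were all members, *Irf4*, *Gys1*, *Pygm*, *Phka1*, the 2 highest and 2 lowest log2 fold changes tested in each pathway list and any gene past both limits, and the 5 profiles closest to *Ppp1r3c*. Other genes were named as markers of tissue or as an overlap, and *Srebf1* after its values were seen. Macrophage, adipocyte, endothelial and nerve genes were also summed.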

Additional observations from a re-analysis of the deposited data

Results flagged for a closer look

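Within each group of 4 mice, a value was marked where its gap to the nearest mouse exceeded Dixon's critical value for the range of the group, on the log2(value + 1) scale for genes. Of 26 groups examined 2 were marked, both in the same mouse and both from the same gene, and chance marks about 1 in 20 groups. *Ppp1r3c* in MI4KO mouse 3, at 1128.33, lay apart from the other MI4KO mice by 0.919 of the range. The share of *Ppp1r3c* in the summed level of the targeting subunits per kilobase, 95.6789% in that mouse, lay apart by 0.834.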

How the results depend on the processing

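No paired analysis was possible because the labels give no replicate numbers shared between the groups. The count of genes past both limits, 26, was 71 with a pseudocount of 0.1, 5 with a pseudocount of 5, 13 with robust estimation, 65 with edgeR and 51 with DESeq2, and 19 to 58 with 1 mouse left out (58 without MI4KO mouse 4). The count past the adjusted p limit was 0 to 1 with 1 mouse left out (1 without MI4KO mouse 2) and 0 otherwise. *Ppp1r3c* kept its direction under every alternative and passed both limits with edgeR (0.94) and without MI4KO mouse 2 (0.84, unadjusted p = 0.047 by limma). With 1 mouse left out it was 0.14 (without MI4KO mouse 3) to 0.84. *Irf4* passed both limits with a pseudocount of 0.1 (-0.88) and without flox mouse 1 (-0.60), and was -0.60 to -0.31 with 1 mouse left out. Its p was not under 0.05 in 10 of 18 alternatives. The members other than *Ppp1r3c* were past both limits in 0 alternative fits, no fit gave any member an adjusted p under 0.954, and 10 fits changed a sign, all of values near 0. *Ppp1r3b* was 0.0745 without flox mouse 1. *Ppp1cc* was 0.0219 with library-size scaling, and with 1 mouse left out *Ppp1cc* was -0.0580 to 0.0273, *Ppp1ca* -0.00881 to 0.0993, *Ppp1cb* -0.0168 to 0.103, *Ppp1r3a* -0.0257 to 0.144 and *Ppp1r3d* -0.157 to 0.00990. The cause was not tested. Coding length moved the share of *Ppp1r3c* in MI4KO mouse 3 from 95.7% to 96.6%. Between 4 and 26 reads per mouse limit *Irf4*, *Ppp1r3b* and *Ppp1r3e*, and 0 to 3 reads leave *Ppp1r3g* without a comparison.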

Other observations

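Markers of other cell types in the muscle were summed per mouse. The 4 macrophage genes summed to 14.9 to 21.1 in flox mice and 15.5 to 18.9 in MI4KO mice, the 3 nerve genes to 48.96 to 73.3 and 47.5 to 59.9, and the 5 adipocyte genes to 20.3 to 26.6 and 7.76 to 35.5. The 3 endothelial genes summed to 265 to 313 in flox mice and 194 to 276 in MI4KO mice. *Cdh5* and *Kdr*, named after their values were seen, had log2 fold changes of -0.29 and -0.37 (unadjusted p = 0.028 and 0.024 by limma). Of all genes tested 3.36% had an unadjusted p under 0.05 in limma. With edgeR the unadjusted p was 0.044 for *Cdh5* and 0.074 for *Kdr*. *Pecam1*, the remaining gene of this list, had -0.13 (unadjusted p = 0.30 by limma). In MI4KO mouse 3 the endothelial sum was 276, within the range of the other mice, and the adipocyte sum was 12.9.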
